A study of Mus musculus with 6 samples.

Results

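Mesothelium is the flat epithelium that lines the body cavities and covers the visceral organs, including the fat pads beside the gonads. The 7 genes described here, Krt7, Krt8, Krt18, Krt19, Upk3b, Gpm6a and Nkain4, are used as markers of that layer. They were taken as the entries with these gene symbols in the authors' deposited table of perigonadal against subcutaneous adipose stromal cells, which lists only probe sets (transcript clusters) with an unadjusted p below 0.05 in the authors' paired test. Each gene had 1 probe set, so the members are 7 of the 23531 probe sets measured and 7 of the 3541 that have a gene name here. The members were thus selected on measured values of this same comparison, chosen by the authors' p, and their differences between depots are therefore given as descriptions, without a test. The choice ended at Nkain4, whose p of 0.0492 in the authors' deposited table was the highest of the 7. No mesothelial gene beyond that limit can be named, since gene names came only from that table.

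The adipose stromal cells came from perigonadal fat (3 pools) and from subcutaneous fat (3 pools) of male mice, and each pool was hybridised to 1 Affymetrix array. Per the labels, the cells were processed directly after isolation, without culture. They had been sorted magnetically as CD45-, CD31- and Sca1+, which selects against leukocytes and endothelium and for progenitor cells. No sort against mesothelium is named. The labels name neither strain nor age, and nothing says whether perigonadal and subcutaneous pools of the same number came from the same mice. Median intensities of the arrays lay between 6.51 and 6.96 in perigonadal pools and between 6.44 and 6.92 in subcutaneous pools. In both depots pool 1 had the highest median and pool 3 the lowest. The files used here hold no background measure, so a dim value is read only against the same probe set on the other arrays.

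Keratins are the intermediate filament proteins of epithelial cells, and a filament forms only when a type I chain pairs with a type II chain. Krt8 and Krt7 are type II chains and Krt18 and Krt19 are type I chains. All 4 are typical of simple, single-layered epithelia in general, the mesothelium among them, so they do not mark mesothelium alone. Upk3b belongs to the uroplakins, membrane proteins first known from the bladder lining. Gpm6a is a proteolipid-family membrane glycoprotein best known from neurons, where it promotes filopodia. Nkain4 is a small membrane protein of a family named for its interaction with the sodium pump.

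All 7 genes had higher intensities in every perigonadal pool than in any subcutaneous pool. The ratio of the depot means (perigonadal over subcutaneous) ran from 6.21 for Upk3b to 1.53 for Krt7. The subcutaneous values of Upk3b (3.26 to 3.89) and Gpm6a (2.43 to 3.28) lay near the lower quartile of the subcutaneous arrays (3.12 to 3.18). Those of Krt18 (3.66 to 4.72) and Krt7 (4.89 to 6.21) lay below the medians of these arrays (6.44 to 6.92). None of these values is shown to be above background. The ratios of these genes and their place in any order thus describe normalized intensities only. For comparison, 10.7% of all probe sets and 34.6% of those with a name were higher without overlap, and 14.4% and 46.7% were lower without overlap. At an adjusted p below 0.05 in limma, 4.05% of all probe sets were called higher and 5.47% lower, and among those with a name 22.1% and 29.6%. The 7 genes all passed that threshold, from which nothing is read, since the comparison that chose them is the same. The median of the log2 differences (log2(intensity + 1), perigonadal minus subcutaneous) was 1.15 over the 7 genes, 0.85 over the 4 keratins and 2.06 over the 3 surface proteins. It was -0.01 over all probe sets and -0.13 over those with a name. These are bulk samples, in which a smaller number of expressing cells and less RNA per cell cannot be told apart.

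**Figure D1:**
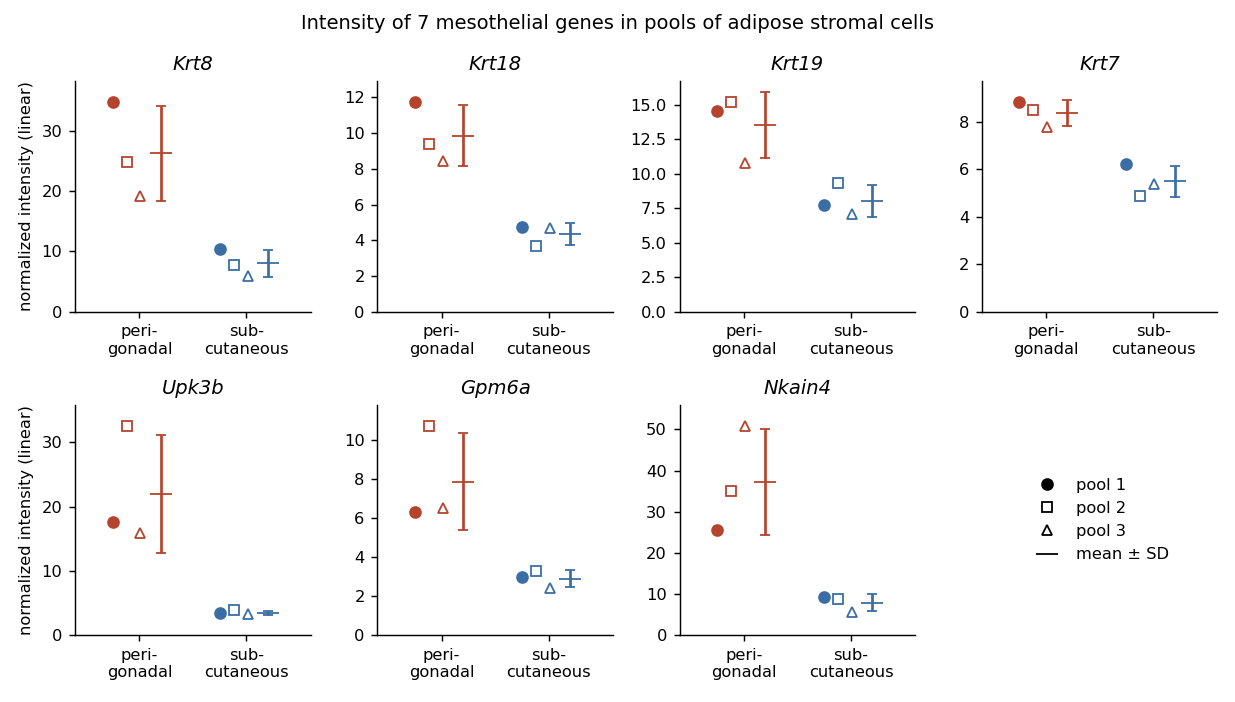
Normalized intensity (linear scale, from 0) of each gene in the 3 perigonadal pools (left in each panel) and the 3 subcutaneous pools (right), with mean ± SD beside the points. In each panel the lowest perigonadal pool lies above the highest subcutaneous pool, and the pool that is highest in perigonadal fat differs between genes.

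Among the 4 keratins of the set, the partners Krt8 and Krt18 showed the largest differences. The intensity of Krt8 (transcript cluster 10432918, chromosome 15, band F3 in the authors' table) was 34.73, 24.74 and 19.15 in perigonadal pools 1 to 3, against 10.35, 7.80 and 5.89 in subcutaneous pools 1 to 3. Pool 1 was the highest and pool 3 the lowest in both depots, and the groups did not overlap. The means were 26.2 ± 7.89 in perigonadal and 8.01 ± 2.24 in subcutaneous pools (SD, n = 3 each, as in all later means), and the log2 difference was 1.58 with an SE of ± 0.086 in the limma fit. Pools of 1 depot differed by up to 1.81-fold in perigonadal and 1.76-fold in subcutaneous fat. Even so, the ratio of perigonadal to subcutaneous pools of the same number was nearly constant, at 3.36, 3.17 and 3.25. The authors' paired test, which chose the genes, favours such steady ratios, so nothing is read from it.

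Krt18 (10427075, chromosome 15, band F3) had intensities of 11.74, 9.38 and 8.42 in perigonadal pools 1 to 3, against 4.72, 3.66 and 4.67 in subcutaneous pools 1 to 3. Perigonadal pools stood in the order of Krt8, with pool 1 at the top, while subcutaneous pool 2 was the low one. The means were 9.85 ± 1.71 and 4.35 ± 0.598, a log2 difference of 1.01 ± 0.11. The ratios by pool were 2.49, 2.56 and 1.80.

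Krt19, a type I keratin that lacks most of the usual tail domain, and Krt7, a type II keratin of ducts and other simple linings, differed less. Krt19 (10391036, chromosome 11, band D) had 14.57, 15.19 and 10.78 in perigonadal pools 1 to 3, against 7.72, 9.34 and 7.05 in subcutaneous pools 1 to 3. The gap was narrow, since the lowest perigonadal pool was 1.15-fold above the highest subcutaneous one. The means were 13.5 ± 2.39 and 8.04 ± 1.18, a log2 difference of 0.68 ± 0.095. Krt7 (10427052, chromosome 15, band F2) had 8.83, 8.50 and 7.78 in perigonadal pools, against 6.21, 4.89 and 5.36 in subcutaneous pools. It was the steadiest of the 7 genes in perigonadal fat, where its highest pool was 1.14-fold its lowest. The means were 8.37 ± 0.537 and 5.49 ± 0.669, a log2 difference of 0.53 ± 0.093.

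Krt7, Krt8 and Krt18 share chromosome 15 and had the same order of perigonadal pools (for Krt7 only in the values as deposited), so their upstream sequences are shown, with that of Upk3b, the gene with the largest difference, for contrast. In the RefSeq gene table of GRCm38.p6, 2 predicted genes, Gm36026 and Gm41404, are listed between Krt8 and Krt18. The promoter table of RefSeq (GRCm38.p6) matched 5 of the 7 genes. It gave no entry for Krt19 and Nkain4. Each sequence below is the 250 bases before the annotated start, 5′ to 3′ on the strand of the gene. They lie at chr15:101412153-101412402 (plus strand) for Krt7, chr15:102004343-102004592 (minus strand) for Krt8, chr15:102027966-102028215 (plus strand) for Krt18 and chr5:136038246-136038495 (plus strand) for Upk3b. Capitals mark matches, on either strand, to the GC box GGGCGG or to the TEAD core CATTCC. The searched motifs do not overlap each other in these sequences.
Krt7: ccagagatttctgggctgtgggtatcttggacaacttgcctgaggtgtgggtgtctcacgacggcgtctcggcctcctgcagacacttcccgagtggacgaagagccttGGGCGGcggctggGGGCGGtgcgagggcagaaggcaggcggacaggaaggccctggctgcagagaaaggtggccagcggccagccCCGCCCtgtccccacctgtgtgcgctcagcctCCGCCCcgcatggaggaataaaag
Krt8: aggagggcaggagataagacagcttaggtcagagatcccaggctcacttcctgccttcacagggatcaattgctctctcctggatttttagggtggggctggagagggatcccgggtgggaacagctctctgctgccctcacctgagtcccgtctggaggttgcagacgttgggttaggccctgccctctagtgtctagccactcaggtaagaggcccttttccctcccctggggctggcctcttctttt
Krt18: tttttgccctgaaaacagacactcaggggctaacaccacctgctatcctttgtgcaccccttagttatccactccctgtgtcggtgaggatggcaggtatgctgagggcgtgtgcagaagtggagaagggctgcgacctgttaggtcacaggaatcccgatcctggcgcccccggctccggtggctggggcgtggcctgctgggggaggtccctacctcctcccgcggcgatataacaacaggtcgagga
Upk3b: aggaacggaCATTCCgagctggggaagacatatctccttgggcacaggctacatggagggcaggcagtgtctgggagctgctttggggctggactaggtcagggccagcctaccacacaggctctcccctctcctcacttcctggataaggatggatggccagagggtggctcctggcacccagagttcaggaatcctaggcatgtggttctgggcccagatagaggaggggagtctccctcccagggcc
The window of Krt7 held 4 GC boxes and those of Krt8, Krt18 and Upk3b held none. Of 32851 RefSeq promoters, 32.7% had a GC box in the same 250 bases. The window of Upk3b held 1 TEAD core, 236 to 241 bases before the start, as 12.6% of promoters did. The TATA box letters TATAAA (in 12.4% of promoters) and the core letters GCGTGGG that are shared by sites of EGR factors and WT1 (in 4.3%) were in none of these 4 windows. The 3 keratin windows with a common order of pools thus had no searched motif in common. For Gpm6a, whose windows are not shown, a TEAD core lay 120 to 125 bases before the start. TATAAA lay, on the opposite strand, 206 to 211 bases before a different start of that gene. A match is only a run of letters, and its absence says nothing about a factor.

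Upk3b and Nkain4 differed more between depots than any of the 4 keratins, and Gpm6a lay between Krt8 and Krt18. Upk3b (10526441, chromosome 5, band G2) had intensities of 17.64, 32.60 and 15.87 in perigonadal pools 1 to 3, against 3.49, 3.89 and 3.26 in subcutaneous pools 1 to 3. Perigonadal pool 2 stood at 2.05 times pool 3, while the subcutaneous pools lay within 1.19-fold of each other. The means were 22.0 ± 9.19 and 3.55 ± 0.319, a log2 difference of 2.27 ± 0.16. The ratio was 8.38 in pool 2, against 5.05 in pool 1 and 4.87 in pool 3.

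Gpm6a (10571815, chromosome 8, band B3.2) was dim, with 6.32, 10.71 and 6.52 in perigonadal pools 1 to 3, against 3.00, 3.28 and 2.43 in subcutaneous pools 1 to 3. As for Upk3b, pool 2 was the highest in both depots. The means were 7.85 ± 2.48 and 2.90 ± 0.433, a log2 difference of 1.15 ± 0.12. Its relative Gpm6b, another proteolipid-family glycoprotein, had 75.38, 80.28 and 72.99 in perigonadal pools, against 41.16, 39.87 and 40.88 in subcutaneous pools. Gpm6b rose by a log2 value of 0.89 (adjusted p = 0.000871), with little scatter in either depot. Gpm6b and the sodium pump genes below have a name only because the authors' test on these pools selected them. Their adjusted p-values are no independent evidence, and 22.1% of all named probe sets were called higher.

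Nkain4 (10490551, chromosome 2, band H4) had 25.47, 35.06 and 50.88 in perigonadal pools 1 to 3, against 9.31, 8.94 and 5.69 in subcutaneous pools 1 to 3. Pool 3 was the highest in perigonadal and the lowest in subcutaneous fat. The means were 37.1 ± 12.8 and 7.98 ± 1.99, a log2 difference of 2.06 ± 0.26, the largest SE among the 7 genes. The ratio was 8.94 in pool 3, 3.92 in pool 2 and 2.74 in pool 1. The beta chains of the sodium pump, Atp1b1, Atp1b2 and Atp1b3, were called higher. Atp1b2 had a log2 difference of 1.40 (adjusted p = 0.000242) and Atp1b1 one of 0.91 (adjusted p = 0.000694). Atp1b3 had 0.39 (adjusted p = 0.0401), a call that ended with no replicate block (adjusted p = 0.0776) and without any 1 of the 3 pool pairs.

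In the order of the differences, Upk3b was followed by Nkain4, Krt8, Gpm6a, Krt18, Krt19 and Krt7. Of the 6 neighbours in that order, 5 overlapped in their differences by pool pair, the exception being Krt8 and Gpm6a. With a pseudocount of 16, which weighs dim values less, Nkain4 (1.12) came before Upk3b (0.93), and the median over the 7 genes was 0.34. The sizes and the order of these differences therefore depend on how dim values are treated. In the authors' deposited table, which uses log2 intensity without a pseudocount, the differences ran from 2.56 for Upk3b to 0.61 for Krt7.

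**Figure D2:**
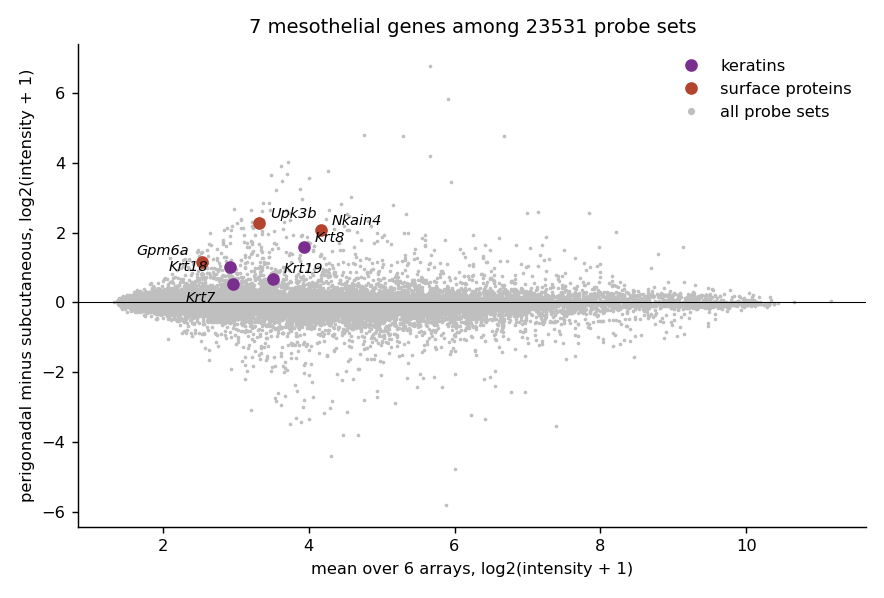
Difference of depot means (perigonadal minus subcutaneous, log2(intensity + 1), vertical axis) against the mean over 6 arrays on the same scale (horizontal axis) for all 23531 probe sets in grey, the 4 keratins in purple and the 3 surface proteins in red. The 7 genes lie above 0, from 0.53 for Krt7 to 2.27 for Upk3b. They lie toward the dim end of the axis, although only Gpm6a and Krt18 were below the median intensity of all probe sets.

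Among pools of 1 depot the 7 genes did not move as a block. The 6 arrays fall into separate groups by depot, so no correlation over them is given, and with 3 pools per depot a relation within a depot cannot be tested. In perigonadal fat pool 1 was the highest for Krt7, Krt8 and Krt18, pool 2 for Krt19, Upk3b and Gpm6a, and pool 3 for Nkain4. Of the 21 pairs of genes, 4 had the same order of perigonadal pools as deposited. These were the 3 pairs among Krt7, Krt8 and Krt18, and the pair Upk3b and Krt19. Each of the 6 possible orders was held by 12.89% to 19.78% of all probe sets, so no grouping is read from this count. With arrays centred on their medians or quantile normalized, Krt7 had the order of Upk3b and Krt19 instead. Nkain4 stood in the reverse order of Krt8. The SD of their log2 difference across perigonadal pools was 0.90, the largest of the 21 pairs. It was smallest for Krt18 with Krt7 (0.15), followed by Krt19 with Krt7 (0.18), Upk3b with Gpm6a (0.18), Krt18 with Krt19 (0.19) and Krt8 with Krt18 (0.20). In subcutaneous fat the value for Upk3b with Gpm6a was 0.078, and that for Krt8 with Nkain4 was 0.16.

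**Figure D3:**
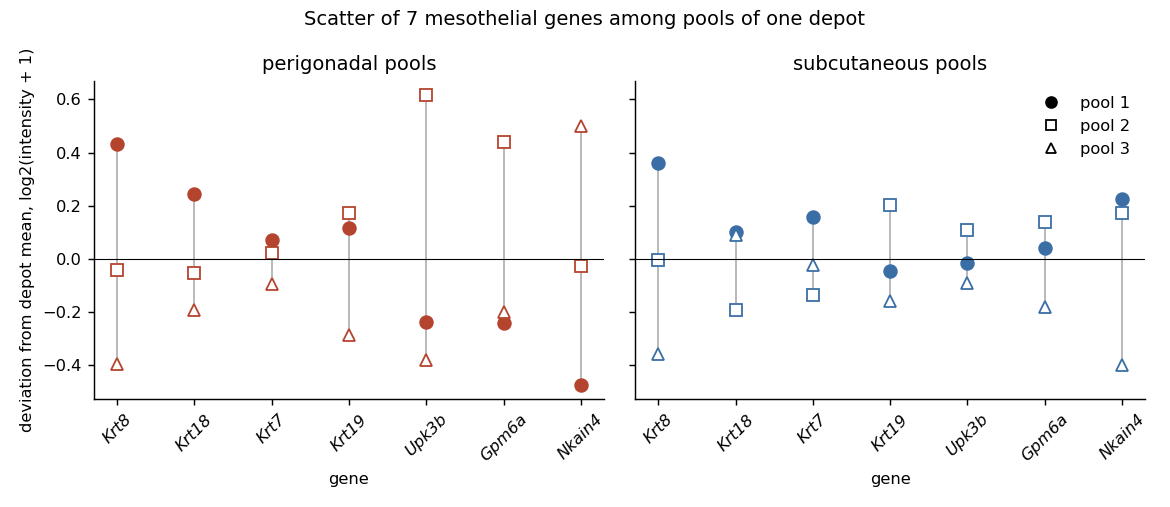
Deviation of each pool from the mean of its depot on the log2(intensity + 1) scale, for perigonadal pools (left) and subcutaneous pools (right), with 1 column per gene and 1 symbol per pool. Pool 1 is at the top for Krt8, Krt18 and Krt7, pool 2 for Krt19, Upk3b and Gpm6a, and pool 3 for Nkain4 in perigonadal fat only.

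Several genes scattered widely for this data set. The SD of log2(intensity + 1) over perigonadal pools was 0.54 for Upk3b, 0.49 for Nkain4, 0.41 for Krt8 and 0.38 for Gpm6a, against a median of 0.12 over all probe sets. Between 98.1% and 99.5% of all probe sets had a smaller SD than these 4 genes. Krt19 (0.25) and Krt18 (0.22) were in between, and Krt7 (0.084) was below the median. Over the 6717 probe sets in the mean intensity range of the 7 genes, the median SD in perigonadal pools was 0.16. In subcutaneous pools the SDs were 0.36 for Krt8, 0.35 for Nkain4 and between 0.10 and 0.18 for the other 5 genes, against a median of 0.11 over all probe sets. For Upk3b, Krt8 and Krt19 the order of the pools was the same in both depots, 3 of 7 genes, as it was for 20.0% of all probe sets. Pool 3 was the lowest for 5 of the 7 genes in each depot. Of all probe sets in perigonadal fat, 18.24% had the order 1 > 2 > 3 and 13.65% the order 2 > 1 > 3. In subcutaneous fat these orders, which end with pool 3, were held by 18.77% and 16.65%. The array medians also ended with pool 3. With arrays centred on their medians, pool 3 was the lowest for 5 genes in perigonadal and 4 in subcutaneous fat, and the order of pools held for 6 of 7 genes in perigonadal but for 4 of 7 in subcutaneous fat. In perigonadal fat Krt7 was the exception, with pool 2 ahead of pool 1. The order was then the same in both depots for 2 genes, Krt8 and Krt19, since the subcutaneous order of Upk3b changed.

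Among keratins beyond these 4, the calls were all in the other direction. Of 49 further keratin genes looked for, 6 had a name, of which 4 were called lower, none higher and 2 did not pass, with a median log2 difference of -0.83. As for every list above and below, a gene had a name only if the authors' test on these pools had selected it. Such counts are thus no independent evidence and stand beside the 22.1% higher and 29.6% lower among all named probe sets. Krt80, a type II keratin found at cell borders, averaged 6.08 ± 0.704 in perigonadal and 14.95 ± 1.01 in subcutaneous pools, a log2 difference of -1.17 (adjusted p = 0.000404). Krt20, a type I keratin of the gut lining and the bladder surface, averaged 4.15 ± 0.974 and 8.58 ± 0.552, which is -0.91 on the log2 scale (adjusted p = 0.00148). The type I chains Krt23 (-0.88, adjusted p = 0.00474) and Krt36, a hair keratin (-0.78, adjusted p = 0.00358), fell by similar amounts. Krt10, of the upper epidermis, had 9.10, 8.37 and 6.38 in perigonadal pools, against 11.13, 10.48 and 8.25 in subcutaneous pools (log2 difference -0.29, adjusted p = 0.0813). Krt4, of stratified linings such as the oesophagus, had 0.12 (adjusted p = 0.513). The call of Krt23 ended with a pseudocount of 16 (adjusted p = 0.0626), and 3 of the 4 lower keratins were too dim for a fit restricted to probe sets above the median intensity, which called 1 of them.

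**Figure D4:**
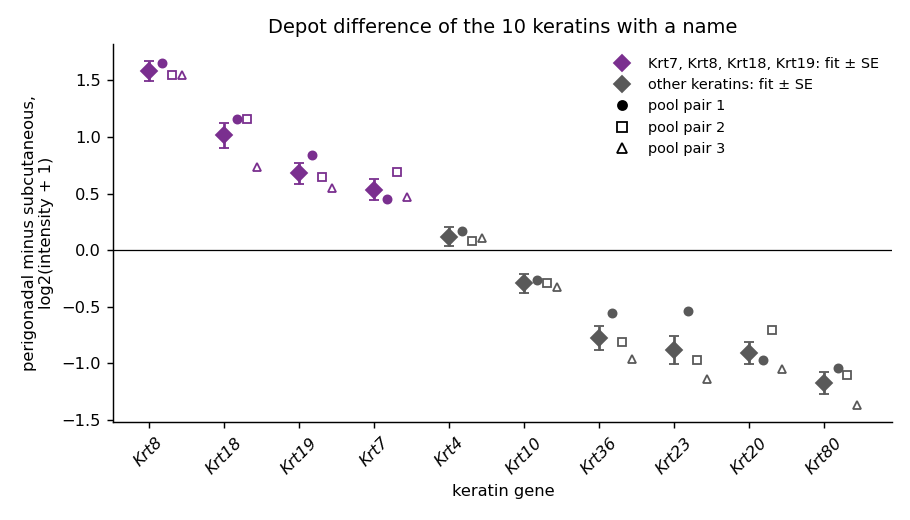
Depot difference (perigonadal minus subcutaneous, log2(intensity + 1)) of the 10 keratins with a name. Diamonds are the fit ± SE and small symbols the 3 pool pairs. Krt8, Krt18, Krt19 and Krt7 lie above 0 in every pool pair, and Krt36, Krt23, Krt20 and Krt80 lie below it in every pool pair.

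None of the named genes for proteins that anchor keratin filaments was called higher. Of 22 linker and desmosome genes 4 had a name, 2 called lower and 2 that did not pass. Plakoglobin, Jup, averaged 47.0 ± 5.11 in perigonadal and 75.3 ± 8.90 in subcutaneous pools, which is -0.67 on the log2 scale (adjusted p = 0.00300). Periplakin, Ppl, had -0.44 (adjusted p = 0.0276), a call that was lost without pool pair 1 or 2. The cytolinker plectin, Plec, had 0.25 (adjusted p = 0.147) and did not pass, nor did plakophilin 3, Pkp3. Of 32 genes of epithelial junctions and polarity, 10 had a name, with 2 higher, 3 lower and 5 that did not pass. The claudin Cldn10 averaged 4.44 ± 0.993 in perigonadal and 42.0 ± 4.54 in subcutaneous pools, a change of -2.99 on the log2 scale (adjusted p = 4.91e-06), and its other probe set had -2.69 (adjusted p = 2.98e-05). Ezrin, Ezr, which ties the membrane to actin, was higher by log2 1.38 (adjusted p = 0.000199), and the claudin Cldn3 had -0.72 (adjusted p = 0.00305). The adhesion molecule F11r was the second gene called higher (0.62), but without pool pair 1 its adjusted p was 0.0533. Neither the cadherin Cdh1 nor Epcam, the usual markers of epithelia, had a name here.

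The name mesothelial was checked against 21 further markers of that layer. Of these, 7 had a name, 5 called higher and 2 lower, with a median log2 difference of 1.499. The defining markers Msln, Upk1b, Lrrn4, Bnc1, Muc16 and Calb2 were among the 14 without a name, so their levels are not known here. Wt1, a transcription factor of mesothelium and urogenital mesoderm, had 144.3, 152.5 and 126.1 in perigonadal pools 1 to 3, against 4.28, 4.61 and 3.64 in subcutaneous pools 1 to 3 (log2 difference 4.78, adjusted p = 4.55e-07). Its pools as deposited stood in the order of Upk3b and Krt19 in both depots. The secreted protease inhibitor Slpi did the same, with 22.94, 30.59 and 21.47 in perigonadal pools, against 8.52, 11.59 and 5.28 in subcutaneous pools (1.499, adjusted p = 0.000342).

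The Wnt agonist Rspo1 instead followed Nkain4. It had 81.85, 96.58 and 110.5 in perigonadal pools 1 to 3, against 19.18, 14.81 and 13.91 in subcutaneous pools 1 to 3 (log2 difference 2.52, adjusted p = 0.000101). In the values as deposited, perigonadal pool 3 was highest for both genes, and so was subcutaneous pool 1. For Nkain4, centring the arrays or quantile normalization put subcutaneous pool 2 first. Aldh1a2, which makes retinoic acid, averaged 20.7 ± 3.43 and 4.56 ± 0.601 (1.96, adjusted p = 3.35e-05), with perigonadal pool 3 highest as well. Ezr, also in this list, stood in the order of Krt8 in both depots. The 2 markers that fell were Dmkn, dermokine, with 5.92 ± 0.372 and 11.9 ± 0.686 (-0.90, adjusted p = 0.00122), and the lubricin gene Prg4, with 5.88 ± 2.01 and 23.9 ± 4.36 (-1.88, adjusted p = 0.000441). Both are also made outside mesothelium, but so are markers called higher, such as Wt1, which is also a factor of urogenital mesoderm. The named genes of the mesothelial list were thus not uniform in direction, nor in the order of the pools.

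**Figure D5:**
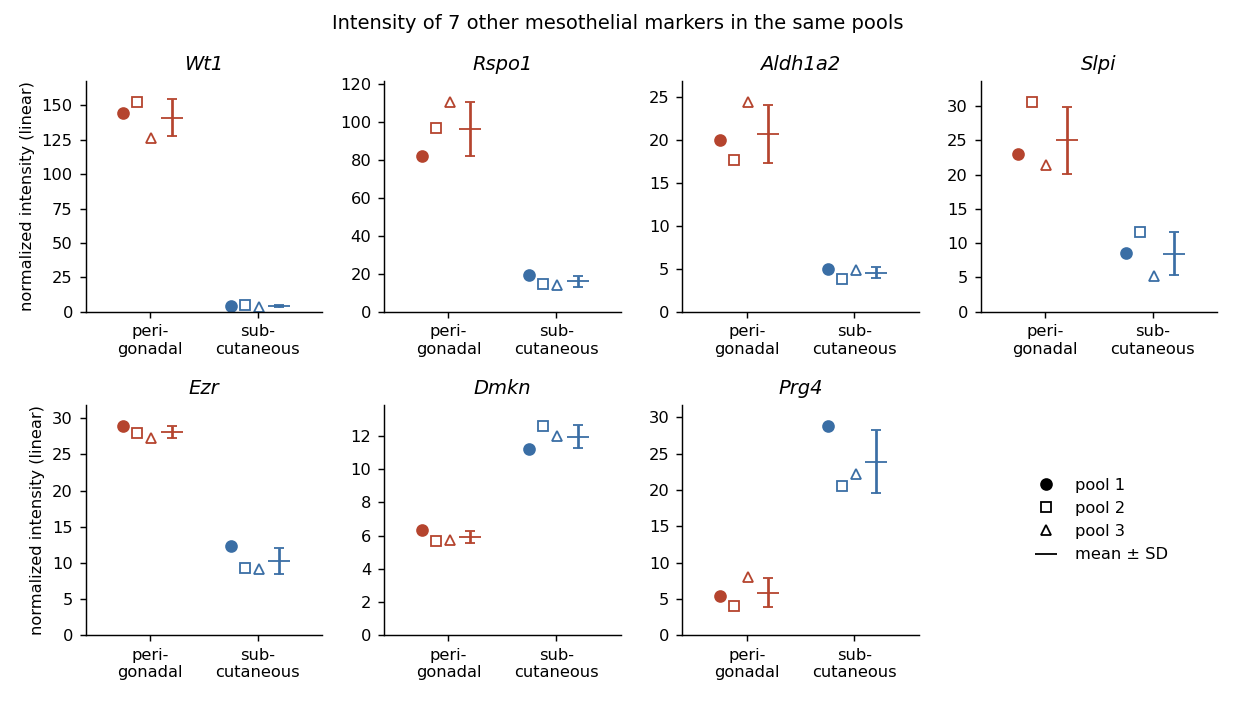
Normalized intensity (linear scale, from 0) of the 7 further mesothelial markers with a name in the 3 perigonadal pools (left in each panel) and the 3 subcutaneous pools (right), with mean ± SD. Wt1, Rspo1, Aldh1a2, Slpi and Ezr are higher in every perigonadal pool, and Dmkn and Prg4 are lower.

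Markers of other cells were read beside these results, and their part in them was not tested. Ly6a, which encodes the sorted Sca1, lay between 434.7 and 522.8 in perigonadal and between 509.9 and 620.0 in subcutaneous pools (log2 difference -0.20, adjusted p = 0.231). Of the other sort markers, Ptprc and Pecam1, neither had a name. All 5 named fibroblast and stromal markers of 12 were lower, with summed intensities of 1607 to 1755 in perigonadal and 2786 to 3010 in subcutaneous pools. The call of Pdgfrb was lost without any 1 of the 3 pool pairs, and that of Col3a1 without pair 1. The largest differences were those of Col1a1 (log2 difference -1.10), Thy1 (-0.96) and Col1a2 (-0.69). Of 9 mural cell markers 5 had a name, 3 higher and 2 lower, with summed intensities of 63.7 to 86.6 in perigonadal and 55.5 to 80.0 in subcutaneous pools. The smooth muscle actin Acta2 had 25.74, 32.93 and 50.65 in perigonadal pools 1 to 3, against 12.10, 8.03 and 16.80 in subcutaneous pools (1.49, adjusted p = 0.00122), and its perigonadal pools stood in the order of Nkain4. The channel genes Abcc9 (-2.07) and Kcnj8 (-0.92), typical of pericytes, were lower. Of the higher ones, Tagln lost its call with no replicate block (adjusted p = 0.0539). It also lost it without pool pair 1 (0.0557) or 2 (0.0784) and in most fits that left out 1 array.

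The epididymis lies against this fat pad and its epithelium also makes simple keratins, so 20 markers of genital duct epithelium were looked for. The 2 with a name were the lipocalin Lcn5, with 3.82 ± 0.212 in perigonadal and 4.26 ± 0.245 in subcutaneous pools (adjusted p = 0.478), and the urogenital factor Emx2, which was lower (log2 difference -1.99, adjusted p = 2.79e-05). Their summed intensities were 7.86 to 10.4 in perigonadal and 26.3 to 30.8 in subcutaneous pools. Of the Schwann cell markers, S100b averaged 7.21 ± 1.13 in perigonadal and 21.4 ± 1.49 in subcutaneous pools (adjusted p = 9.93e-05), and Mbp was lower as well. The 2 named leukocyte markers of 12, Itgam and Ms4a1, did not pass, with sums of 4.64 to 4.91 against 4.79 to 5.17. Of 12 endothelial markers, Tek was lower (-0.76) and Lyve1 higher (0.53, adjusted p = 0.0681 without pool pair 2), with sums of 79.9 to 84.9 against 124.7 to 142.5. Lpl alone of 9 adipocyte markers had a name and was lower (-0.65). Most defining markers of these cells had no name here, so how many cells of each kind the pools held is not known.

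Among named genes outside the 7, likeness was measured as the root mean square distance over the 6 arrays between centred log2(intensity + 1) profiles, against the mean profile of the 7 genes. That mean profile was highest in perigonadal pool 2 and lowest in subcutaneous pool 3. The nearest genes, at distances of 0.11 to 0.15, were Tmtc2, the kinase gene Dapk2, Ezr, the procollagen protease gene Adamts3, 1 of the 70 named probe sets of the hemicentin gene Hmcn1, the hedgehog co-receptor gene Boc, the transcription factor gene Foxp2, Star, which moves cholesterol into mitochondria, the adhesion receptor gene Adgrf5 and the glucose transporter gene Slc2a1. They were picked for a profile that is itself a difference between depots, so no test of that difference is given for them here. The closest, Tmtc2, had 10.87, 12.34 and 8.36 in perigonadal pools, against 3.26, 3.40 and 3.17 in subcutaneous pools. The 7 genes themselves lay at 0.18 (Gpm6a) to 0.53 (Upk3b) from their own mean. The outside genes were picked for the smallest distances, so these ranges cannot be compared. The nearest member was Nkain4 for Upk3b and Upk3b for Nkain4 (0.49), Krt18 for Krt8 (0.38), Krt7 for Krt18 (0.26), Krt19 for Gpm6a (0.30), and Krt7 and Krt19 for each other (0.21).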

How the data were processed

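Per the labels' protocols, total RNA of sorted adipose stromal cells was labelled with biotin for Affymetrix arrays. The authors deposited a normalized intensity per probe set on a linear scale, whose log2 averages to the log2 means of their comparison table. Per the submitters' processing notes Partek was used. How background was corrected and arrays normalized, and on which build, is not given in the sources used here. Per the file headers, the authors' comparison table gives p-values, t scores, log2 means and differences, ratios and a signed fold score. It named 3541 of the 23531 probe sets (15.0%). Symbols were updated through RefSeq accessions (3417 of 3694 entries) or matched by symbol (166), while 111 stayed as deposited.

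Differences were fitted with limma 3.58.1 (R 4.3.3, lmFit and eBayes) on log2(intensity + 1) over all probe sets, with the pool number as a block because the authors' test was paired, and Benjamini-Hochberg adjustment at 0.05. Genes with several probe sets are represented by the brightest. The fit was tested on simulated data. Deviations of same-numbered pools correlated at 0.17, 0.16 and 0.053 across probe sets, so the values themselves pair the pools weakly. P-values reflect only how these pools vary, and precision is limited by the number of arrays. All 7 members, all named genes of the closest lists, up to 3 genes with the largest differences of other lists and the 10 most alike genes are named, and F11r, Pkp3, Tagln, Pdgfrb, Col3a1 and Lmna were added after their values were seen. A few named genes of these lists are not reported here. Members and lists were chosen with earlier results of these data known.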

Additional observations from a re-analysis of the deposited data

How the results depend on the processing

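The direction of all 7 differences held under each alternative run. Since the depots did not overlap for these genes, leaving out pools or changing the pseudocount or the block could not reverse it. Nothing is read from that. With no replicate block, 943 probe sets were called higher and 1316 lower, against 952 and 1286 with the block, and of the listed genes Atp1b3 and Tagln lost their calls. The median difference of the 7 genes was 1.40 with no pseudocount, in the authors' deposited table and under the methods' t-test, and 0.34 with a pseudocount of 16. These settings weigh dim values differently by construction. Leaving out 1 pool pair or 1 array gave medians of 1.00 to 1.29, with Nkain4 between 1.61 and 2.41, Krt8 between 1.37 and 1.78 and Upk3b between 1.97 and 2.46. Counts over all probe sets lay between 529 and 1068 higher and between 660 and 1408 lower in these fits. The lowest were those without pool pair 1 (529 and 660), and 716 were lower when pair 2 was left out. The methods' t-test, which takes each spread from 3 pairs alone, called 0 probe sets higher and 0 lower after adjustment, with 3541 at an unadjusted p below 0.05, and hence 0 mesothelial markers higher, 0 lower and 0 further keratins lower. In the 15 other fits the mesothelial counts were 5 higher and 2 lower, and the keratin count was 4 lower, except 3 with a pseudocount of 16 and 1 above the median intensity, where fewer were tested. Gpm6a and Krt18 were too dim for that fit, so it gave no median. The median log2 range of the 7 genes over perigonadal pools was 0.68, and 0.74 to 0.80 with other scalings or no pseudocount.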

Other observations

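Other intermediate filaments were also split by depot. Desmin, Des, the filament protein of muscle and of some mesenchymal cells, had 47.06, 58.70 and 59.01 in perigonadal pools 1 to 3, against 11.54, 6.77 and 8.03 in subcutaneous pools 1 to 3 (log2 difference 2.54, adjusted p = 0.000183). The neurofilament gene Nefl was dim, at 5.84, 10.19 and 7.47 in perigonadal pools against 3.81, 4.04 and 3.49 in subcutaneous pools (0.86, adjusted p = 0.00622, or 0.0818 with a pseudocount of 16), and in both depots pool 2 was its highest, as for Upk3b and Gpm6a. The nuclear lamins were lower, Lmnb1 by a log2 difference of -0.64 (adjusted p = 0.00447) and Lmna of -0.47 (adjusted p = 0.0160). The call of Lmna was lost without pool pair 1 (0.109) or 2 (0.0658). Of 13 such genes 4 had a name, and Vim, the main filament of stromal cells, was not among them.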
